A study of Mus musculus with 6 samples.

Results

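The 9 genes described here encode enzymes, an enzyme partner and a receptor of prostaglandin and leukotriene signalling (Ptgs1, Ptgs2, Ptges, Ptgds, Hpgd, Ptger4, Pla2g4a, Alox5ap and Alox15). They were taken by gene symbol from the 24346 symbols in the deposited tables, and all 9 were found. RNA came from prostate luminal cells, the secretory epithelium of the prostate's glands, sorted by FACS (fluorescence-activated cell sorting) from C57BL/6 mice aged 4 months. The CSF1 group comprised 3 libraries from transgenic mice, in which the rat probasin promoter, active in prostate luminal epithelium, drives a mouse Csf1 transgene that encodes colony-stimulating factor 1. The WT group comprised 3 libraries from wild-type littermates. In both groups the titles open with 3, 5 or 8, taken here as library numbers, and do not say what these stand for. The labels name neither the sort markers nor the transgenic lines used. They do not tell whether the libraries are from different mice, so the p-values cover the spread between these libraries alone, which may be technical.

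Prostaglandins and leukotrienes are short-lived lipid signals made from arachidonic acid. A phospholipase frees the fatty acid from the membrane, cyclooxygenases turn it into the common precursor of the prostanoids, and terminal synthases make prostaglandin E2, prostaglandin D2, prostacyclin or thromboxane from that precursor. Lipoxygenases take the same fatty acid to leukotrienes and hydroxy fatty acids. Epithelial cells, macrophages, fibroblasts and mast cells each make a characteristic set of these lipids, and the inducible cyclooxygenase is best known for its induction in inflamed tissue.

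Csf1, the transgene's gene, was at 1082, 1326 and 1678 FPKM in CSF1 libraries 3, 5 and 8, against 1.54, 2.25 and 3.98 FPKM in WT libraries 3, 5 and 8. FPKM are fragments scaled to transcript length and to the mapped fragments of a library. A level of 1 FPKM stood for a mean read depth of 4.17 to 5.01 in CSF1 libraries and of 2.72 to 3.50 in WT libraries, so low values are less precise in WT. The 10 luminal markers were all expressed, with summed levels of 5238 to 7011 FPKM in CSF1 and 4901 to 6319 FPKM in WT (3 rose, 1 fell and 6 did not pass). Markers of other cells were higher in CSF1. The 14 macrophage and monocyte markers, all of which rose, summed to 881, 1091 and 3528 FPKM in CSF1 libraries 3, 5 and 8 and to 27.7, 37.6 and 135 FPKM in the WT libraries. The 9 stroma markers summed to 605, 744 and 476 FPKM in CSF1 and to 99.4, 101 and 110.03 FPKM in WT, and the 8 that could be tested all rose. The 8 basal cell markers, of which 6 rose, summed to 549 to 860 FPKM in CSF1 and 61.9 to 75.5 FPKM in WT, and the 9 lymphocyte markers, of which 4 could be tested and rose, to 9.24 to 33.0 FPKM in CSF1 and 0.446 to 1.18 FPKM in WT.

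Most of the 9 genes were higher in CSF1 libraries than in WT libraries. By limma, a linear model fitted to log2(FPKM + 1) of the 10951 genes that averaged 1 FPKM or more, 8 of the 9 genes rose and 0 fell at an adjusted p under 0.05, whereas 24.9% of all genes tested rose and 7.47% fell (32.4% in either direction). For 8 of the 9 every CSF1 library was above every WT library, as for 34.7% of all genes tested. The inducible cyclooxygenase gene Ptgs2 had the largest log2 change of the 9 at a pseudocount of 1 or 5, whereas at 0.1 Alox5ap did (4.92, against 4.38 for Ptgs2). Hpgd, the gene of the main prostaglandin-degrading enzyme, was the one that did not pass. The median log2 change was 1.58 over the 9 genes and 0.17 over all genes tested. All 9 genes passed the filter, but Ptgds and Alox5ap did so only through their CSF1 values. The 9 genes were also chosen with earlier results of these data known. Neither their count nor their median can therefore be read as a property of the pathway. The calls of Ptgs1, Ptgs2, Ptges, Ptger4 and Alox5ap held under every alternative in which the gene was tested. Those of Ptgds, Pla2g4a and Alox15 were lost without CSF1 library 3, CSF1 library 5, WT library 3 or WT library 8, which left 5 genes called in each case. Without both libraries numbered 8, which had the highest macrophage marker sums of their groups, 6 genes rose. The median over all genes moved to -0.16 with quantile normalization, where 5 of the 9 rose, to -0.03 with median-ratio scaling, where 6 rose, and to 0.0027 with scaling to the summed FPKM of all but the 5 highest genes, where 6 rose.

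**Figure D1:**
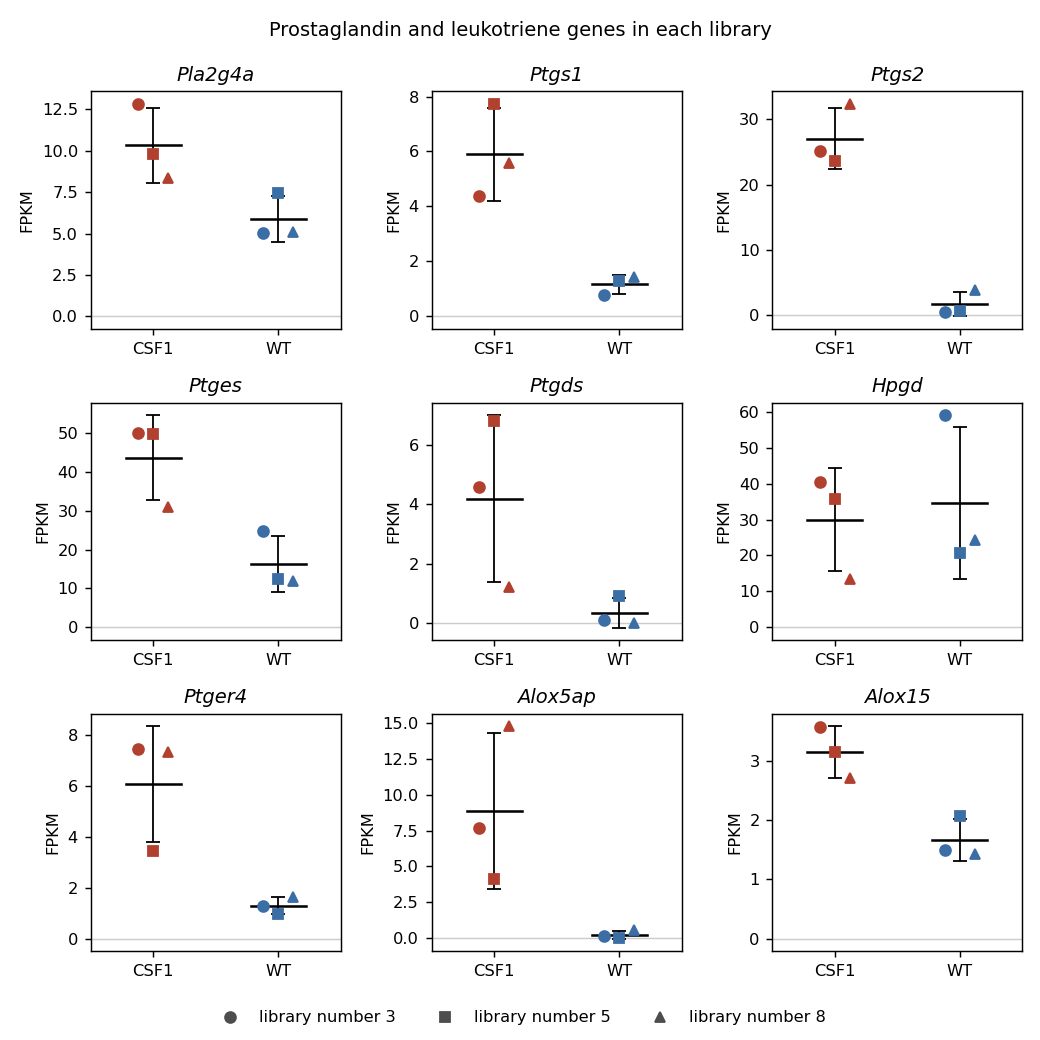
Level of each of the 9 genes in FPKM (vertical axes, linear) in CSF1 and WT libraries, with 1 point per library, the marker shape giving the library number, a black line for the group mean and a bar for the SD (n = 3 each). The groups did not overlap for any gene but Hpgd, whose highest value was 59.0 FPKM in WT library 3.

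Pla2g4a encodes the cytosolic phospholipase A2 that frees arachidonic acid from membranes (chromosome 1, 149829619 to 149961290, minus strand, mm10). It was at 12.8, 9.81 and 8.36 FPKM in CSF1 libraries 3, 5 and 8, against 5.05, 7.46 and 5.08 FPKM in WT. The lowest CSF1 library lay just above the highest WT library. The log2 change was 0.72 ± 0.21 (SE; limma adjusted p = 0.0295), a call lost under 10 of 17 alternatives, among them quantile normalization (0.191), median-ratio scaling (0.0873) and scaling to all but the 5 highest genes (0.105). Nearly all of its signal was assigned to 1 of the 2 listed transcripts, which starts upstream of the other. The second transcript was above 0 only in CSF1 library 8, at 0.955 FPKM or 11.4% of the gene.

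Ptgs1 and Ptgs2 encode the 2 cyclooxygenases, the first mostly constitutive and the second induced by inflammatory signals and growth factors. Ptgs1 (chromosome 2, 36230426 to 36252271, plus strand) was at 4.39, 7.72 and 5.57 FPKM in CSF1 and at 0.768, 1.28 and 1.43 FPKM in WT. Its mean was 5.09-fold higher in CSF1 (5.89 ± 1.69 against 1.16 ± 0.347 FPKM, SD, n = 3 each), with a log2 change of 1.66 ± 0.24 (SE) and an adjusted p of 0.00105 by limma. Its exons overlap an annotated gene on the other strand, and the libraries do not mark strand.

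Ptgs2 (chromosome 1, 150100124 to 150108012, plus strand) lies 138.8 kb from Pla2g4a on the same chromosome. It was at 25.1, 23.5 and 32.3 FPKM in CSF1 libraries 3, 5 and 8, against 0.574, 0.712 and 3.82 FPKM in WT. WT library 8 was well above the other 2 WT libraries and still far below every CSF1 library. Cufflinks' confidence interval, which covers the estimate within 1 library, ran from 22.9 to 24.2 FPKM in CSF1 library 5, the lowest of its group, against 3.45 to 4.20 FPKM in WT library 8 and 0.436 to 0.711 FPKM in WT library 3. The log2 change was 3.56 ± 0.40 (SE; limma adjusted p = 0.000298). Its mean level exceeded that of 74.5% of the tested genes in CSF1 and of 16.8% in WT. Macrophages can express Ptgs2, and their marker sum was highest in library 8 of each group, where Ptgs2 was highest too. CSF1 libraries 3 and 5 were in the opposite order for Ptgs2 and the macrophage sum. The order of Ptgs2 across the 6 libraries was that of the basal marker sum. That sum was 570, 549 and 860 FPKM in CSF1 libraries 3, 5 and 8 and 61.9, 73.6 and 75.5 FPKM in WT. The part of macrophage or basal cell RNA in the rise was not tested.

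The share of Ptgs2 in the summed FPKM of both cyclooxygenases was 85.1%, 75.3% and 85.3% in CSF1 libraries 3, 5 and 8, against 42.8%, 35.7% and 72.8% in WT. The share in WT library 8 was close to that in CSF1 library 5, and the groups did not overlap. As a log2 ratio of FPKM + 1 within a library, Ptgs2 over Ptgs1 was 2.04 ± 0.47 in CSF1 and 0.14 ± 0.75 in WT (SD, n = 3 each; exact two-sided permutation p = 0.1, the smallest that 3 against 3 libraries allow, and 0.125 adjusted over 5 ratios).

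Promoter sequences are shown for the 2 cyclooxygenase genes, which rose by different amounts, for Ptges, whose enzyme works with the inducible cyclooxygenase, and for Hpgd, which did not pass. Each runs from 250 bases before to 50 bases after the RefSeq start (GRCm38.p6), 5′ to 3′ on the gene's strand, and capitals mark matches to the motifs searched.
Ptgs2, chr1:150099781-150100080, plus strand: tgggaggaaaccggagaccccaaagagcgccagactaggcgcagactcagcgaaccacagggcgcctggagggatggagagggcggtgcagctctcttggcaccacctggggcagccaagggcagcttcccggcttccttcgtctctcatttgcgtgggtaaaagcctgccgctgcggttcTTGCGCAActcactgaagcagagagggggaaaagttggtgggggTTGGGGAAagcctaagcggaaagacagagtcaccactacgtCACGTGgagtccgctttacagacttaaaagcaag
Ptgs1, chr2:36230176-36230475, plus strand: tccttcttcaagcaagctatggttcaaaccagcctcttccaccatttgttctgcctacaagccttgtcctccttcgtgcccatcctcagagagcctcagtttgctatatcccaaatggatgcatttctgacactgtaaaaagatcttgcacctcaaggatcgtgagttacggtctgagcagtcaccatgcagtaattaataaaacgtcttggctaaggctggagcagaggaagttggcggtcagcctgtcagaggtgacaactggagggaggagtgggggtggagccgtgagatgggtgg
Ptges, chr2:30903248-30903547, minus strand: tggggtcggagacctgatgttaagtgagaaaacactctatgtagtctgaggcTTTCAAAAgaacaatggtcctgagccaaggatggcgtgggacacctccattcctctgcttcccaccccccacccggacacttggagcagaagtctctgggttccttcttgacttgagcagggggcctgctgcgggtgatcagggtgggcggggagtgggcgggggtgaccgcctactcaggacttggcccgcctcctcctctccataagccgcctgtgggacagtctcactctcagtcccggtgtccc
Hpgd, chr8:56294302-56294601, plus strand: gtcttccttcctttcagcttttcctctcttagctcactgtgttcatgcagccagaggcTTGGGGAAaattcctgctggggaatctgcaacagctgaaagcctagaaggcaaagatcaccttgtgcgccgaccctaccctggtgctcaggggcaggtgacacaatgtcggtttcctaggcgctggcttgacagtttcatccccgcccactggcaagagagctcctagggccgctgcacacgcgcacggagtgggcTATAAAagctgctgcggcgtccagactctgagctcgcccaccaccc
The motifs searched on both strands were TATAAA, the E-box CACGTG, the cyclic AMP response element TGACGTCA, the AP-1 site TGANTCA, the C/EBP-type core TTNNGNAA, the STAT-type site TTCNNNGAA and the NF-kB consensus. Of 32851 promoters in the table, 13.6%, 7.15%, 1.79%, 7.81%, 40.7%, 8.30% and 4.51% held them in that order. The Ptgs2 window held CACGTG at bases 17 to 22 after the start, where the first transcribed base is counted as 1, and TTNNGNAA at bases -69 to -62 and -25 to -18. The first TTNNGNAA match and CACGTG read the same on both strands. The Ptges window held TTNNGNAA on the opposite strand at bases -198 to -191. The Hpgd window held TTNNGNAA at bases -192 to -185 and TATAAA at bases 5 to 10. No searched motif was found in the Ptgs1 window. These are letter matches and no binding was measured. The Ptgs2 model in the deposited tables starts downstream of this window, at 150100124. Of the 9 genes, 7 had a promoter in the table.

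Ptges encodes the inducible microsomal prostaglandin E synthase, which converts the cyclooxygenase product to prostaglandin E2 (chromosome 2, 30889471 to 30903297, minus strand). It was at 49.9, 49.7 and 30.9 FPKM in CSF1 libraries 3, 5 and 8, against 24.7, 12.4 and 11.8 FPKM in WT. Every CSF1 library was above every WT library, although CSF1 library 8 and WT library 3 lay close. The mean was 2.67-fold higher in CSF1 (43.5 ± 10.9 against 16.3 ± 7.27 FPKM), with a log2 change of 1.41 ± 0.30 (SE) and an adjusted p of 0.00738 by limma. Among the CSF1 libraries, Ptges was lowest in library 8, where the macrophage marker sum was highest and the stroma marker sum lowest. The part of other cells' RNA in the rise of Ptges was not tested.

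Ptgds encodes the lipocalin-type prostaglandin D synthase, also a secreted carrier of lipophilic molecules (chromosome 2, 25466712 to 25469749, minus strand). It was at 4.58, 6.79 and 1.20 FPKM in CSF1 libraries 3, 5 and 8 and at 0.106, 0.918 and 0 FPKM in WT. CSF1 library 8 exceeded WT library 5 by little, and the confidence intervals of these values overlapped (0.770 to 1.63 against 0.496 to 1.34 FPKM). The log2 change was 1.83 ± 0.46 (SE; limma adjusted p = 0.0167), a call that held under 10 of 16 alternatives. Among those where it was lost were no filter on low values (0.058) and quantile normalization (0.0686). The CSF1 libraries had the same order for Ptgds as for the stroma marker sum, at 605, 744 and 476 FPKM, and the part of stromal RNA in this rise was not tested.

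Hpgd encodes the dehydrogenase that starts prostaglandin inactivation (chromosome 8, 56294552 to 56321046, plus strand). It was at 40.4, 35.7 and 13.6 FPKM in CSF1 libraries 3, 5 and 8, against 59.0, 20.7 and 24.2 FPKM in WT, so the groups overlapped widely. The log2 change was -0.19 ± 0.47 (SE; limma adjusted p = 0.796). With this error a change of moderate size in either direction is not distinguishable from none. Its sign turned without CSF1 library 8 (0.28), without WT library 3 (0.26) and without both libraries numbered 8 (0.11).

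Within each library, Ptges and Ptgs2 were set against Hpgd. The log2 ratio of Ptges over Hpgd was 0.30, 0.47 and 1.13 in CSF1 libraries 3, 5 and 8 and -1.22, -0.69 and -0.97 in WT. Ptges was thus above Hpgd in each CSF1 library and below it in each WT library. The log2 ratio of Ptgs2 over Hpgd was -0.66, -0.58 and 1.19 in CSF1, against -5.25, -3.66 and -2.39 in WT. Both ratios had an exact two-sided permutation p of 0.1 (0.125 adjusted over the 5 ratios), with differences in mean log2 ratio of 1.60 and 3.75. The ratio of Ptges over Ptgds overlapped between the groups (3.25 ± 0.58 in CSF1 and 3.68 ± 0.87 in WT; exact permutation p = 0.6), and the sign of the difference, -0.43, turned without WT library 3 (0.0065).

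**Figure D2:**
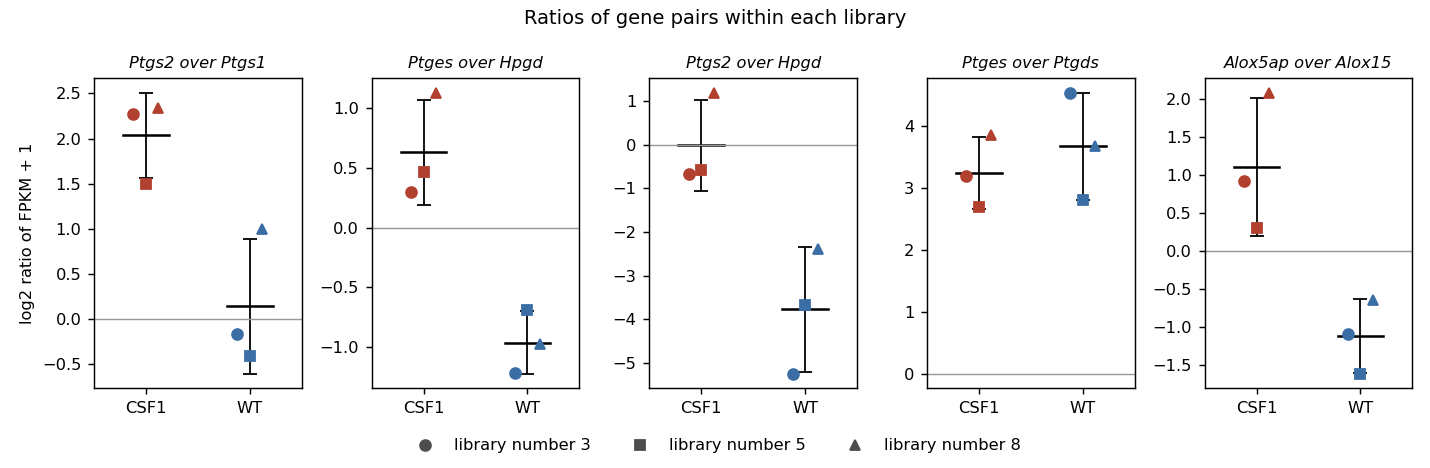
Log2 ratio of FPKM + 1 of 5 gene pairs within each library (vertical axes), for CSF1 and WT, with 1 point per library, the group mean as a line and the SD as a bar (n = 3 each). Ptges over Hpgd was above 0 in the 3 CSF1 libraries and below 0 in the 3 WT libraries, while Ptges over Ptgds overlapped.

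Ptger4 encodes EP4, a receptor for prostaglandin E2 that raises cyclic AMP (chromosome 15, 5233399 to 5244187, minus strand). It was at 7.45, 3.46 and 7.32 FPKM in CSF1 libraries 3, 5 and 8, against 1.29, 0.955 and 1.65 FPKM in WT. All CSF1 libraries lay above all WT libraries, and the mean was 4.68-fold higher (6.07 ± 2.26 against 1.30 ± 0.347 FPKM). The log2 change was 1.58 ± 0.28 (SE; limma adjusted p = 0.00318). Of its 2 transcripts, which share a start, NM_008965 held 59.5% to 79.6% of the gene in CSF1 and 55.8% to 100% in WT, so the same transcript led in every library. GENCODE's longer gene model overlaps exons of Ttc33 and Gm15937 on the other strand, whereas the transcripts in the deposited tables do not reach either gene.

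Alox5ap encodes the partner protein that presents arachidonic acid to the leukotriene-forming lipoxygenase Alox5 (chromosome 5, 149265004 to 149288153, plus strand). It was at 7.70, 4.12 and 14.8 FPKM in CSF1 libraries 3, 5 and 8 and at 0.172, 0 and 0.552 FPKM in WT. The gene was near the limit of detection in WT and was present in every CSF1 library. The log2 change was 2.87 ± 0.39 (SE; limma adjusted p = 0.000831). Myeloid cells express Alox5ap strongly. CSF1 library 8 was highest both for Alox5ap and for the macrophage marker sum, but CSF1 libraries 3 and 5 were in the opposite order for the 2 measures, and the part of macrophage RNA was not tested. Fewer cells of a type and less RNA per cell cannot be told apart in such bulk libraries. Alox5 itself was at 0.248, 0 and 0.762 FPKM in CSF1 and at 0, 0.0437 and 0 FPKM in WT, so the partner was measured at levels where its enzyme was barely detected. Exons of Alox5ap overlap an annotated gene on the other strand.

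Alox15 encodes the mouse lipoxygenase that makes hydroxy fatty acids from arachidonic acid (chromosome 11, 70344147 to 70352031, minus strand). It was at 3.58, 3.16 and 2.72 FPKM in CSF1 and at 1.49, 2.08 and 1.44 FPKM in WT. The groups did not overlap, with a log2 change of 0.64 ± 0.19 (SE) and an adjusted p of 0.0355 by limma. Its call was lost under 9 of 16 alternatives, among them quantile normalization (0.458), median-ratio scaling (0.0877) and scaling to all but the 5 highest genes (0.0996). The log2 ratio of Alox5ap over Alox15 was 1.10 ± 0.91 in CSF1 and -1.12 ± 0.49 in WT (exact permutation p = 0.1, 0.125 adjusted over the 5 ratios). Alox15 is also a gene of eosinophils. Of the 5 eosinophil markers, Epx and Ear6 were at 0 FPKM in all 6 libraries. Prg2 was at 0.768, 1.54 and 3.23 FPKM in CSF1 libraries 3, 5 and 8 and at 0 in WT. The eosinophil marker sum was 0.932 to 4.00 FPKM in CSF1 and 0 FPKM in WT, and the part of eosinophil RNA was not tested.

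The order of levels in FPKM changed between the groups. In CSF1 libraries the means ran from Ptges (43.5 FPKM) through Hpgd (29.9), Ptgs2 (27.0), Pla2g4a (10.3), Alox5ap (8.87), Ptger4 (6.07), Ptgs1 (5.89) and Ptgds (4.19) to Alox15 (3.16). Among these neighbours only Ptgs2 and Pla2g4a had ranges that did not overlap. In WT libraries Hpgd came first (34.6 FPKM), then Ptges (16.3), Pla2g4a (5.86), Ptgs2 (1.70), Alox15 (1.67), Ptger4 (1.30) and Ptgs1 (1.16), with Ptgds and Alox5ap last. There the ranges of Ptges and Pla2g4a, and of Pla2g4a and Ptgs2, did not overlap.

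The profile nearest to each gene over the 6 libraries was sought among all tested genes, as the root mean square difference of log2(FPKM + 1) centred on each gene's mean. Emp3 and Sult1e1 were nearest to Ptgs2, each at 0.23, Kctd11 (0.11) and Dbn1 (0.13) to Ptgs1, and Nr4a3 (0.13) and Sgcb (0.17) to Ptges. Gsdmc3 and Parp14 were nearest to Ptger4 (0.11 each), Slc6a14 (0.16) and Sfn (0.20) to Alox5ap, and Vps13d (0.08) to Pla2g4a. The genes nearest to Ptgds were Col5a2 (0.25) and Islr (0.27), to Alox15 Ppp3cc (0.07) and Tmem237 (0.08), and to Hpgd Spc25 (0.16) and Mgll (0.18). Col5a2 encodes a fibrillar collagen chain, and Nr4a3 an orphan nuclear receptor induced early after stimulation.

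The rest of the pathway was read from a list of 54 other genes, of which 22 passed the filter. Of these 8 rose, 4 fell and 10 did not pass, with a median log2 change of 0.23, close to the 0.17 of all genes tested. Of the 8 that rose, 7 passed the filter only through their CSF1 values. Of the 4 that fell, 1, Mgst2, passed it only through its WT values. Neither count can therefore be read as a property of the list. Exons of Ptgis, Slco2a1, Ptgr2, Tbxas1, Ltc4s, Ptgdr and Ptger2 overlap GENCODE genes on the other strand, whose reads cannot be told apart here.

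**Figure D3:**
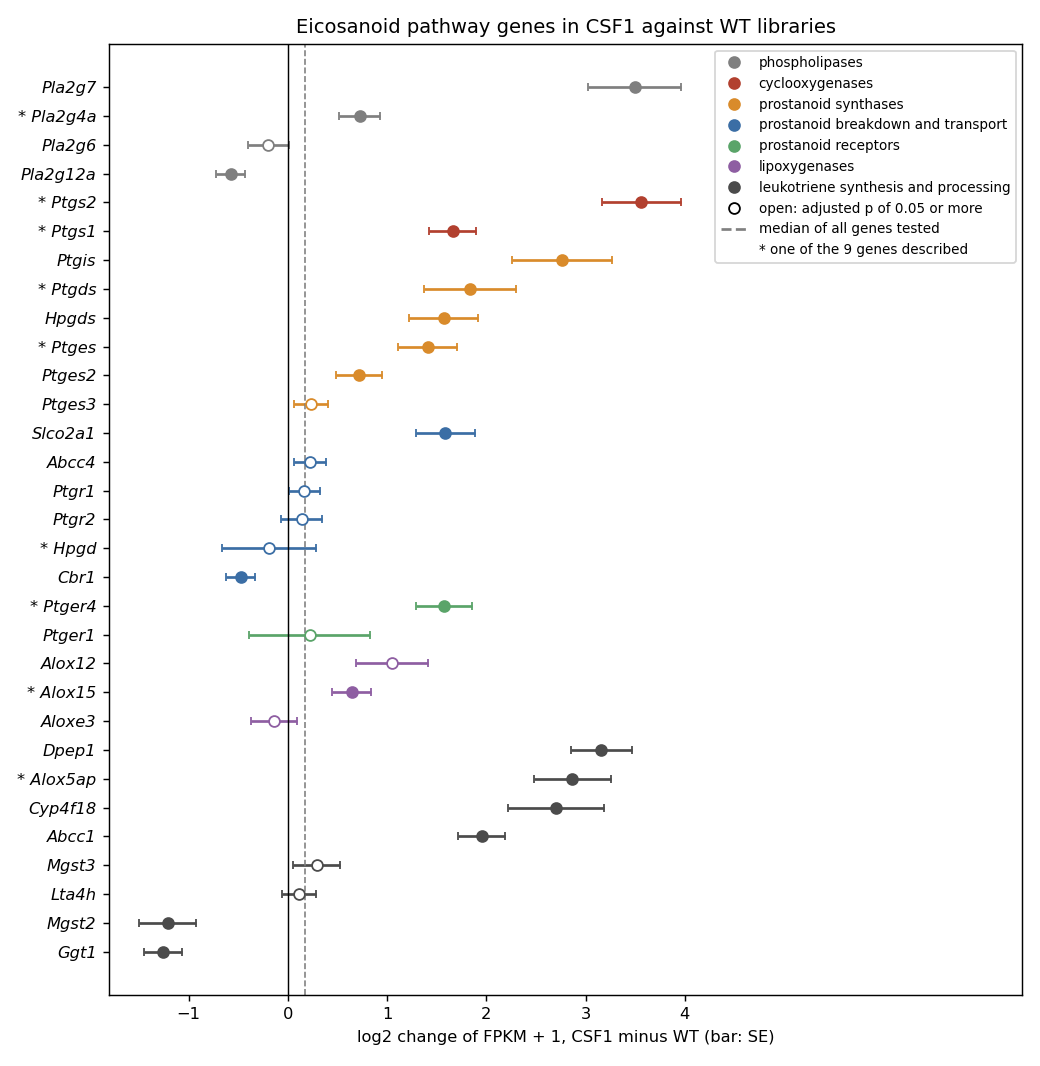
Log2 change of FPKM + 1, CSF1 minus WT (horizontal axis, bars are SE), of the 9 genes (marked *) and the 22 other pathway genes tested, coloured by role, with filled points for a limma adjusted p under 0.05 and a dashed line at the median of all genes tested, 0.17. Cyclooxygenase genes lay at 1.66 and 3.56, while Ggt1 and Mgst2 lay below -1.

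Among phospholipase genes, Pla2g7 rose and Pla2g12a fell. Pla2g7, a macrophage-expressed gene whose enzyme hydrolyses platelet-activating factor, was at 11.5, 15.4 and 28.8 FPKM in CSF1 libraries 3, 5 and 8, against 0.0552, 0.201 and 2.38 FPKM in WT (log2 change 3.49 ± 0.47 SE, limma adjusted p = 0.00082). Its order across the 6 libraries was that of the macrophage marker sum, whose part in the rise was not tested. Its exons overlap a listed gene on the other strand. Pla2g12a, which encodes a secreted phospholipase A2, was at 75.2, 72.0 and 62.02 FPKM in CSF1, against 92.5, 100.3 and 122 FPKM in WT (log2 change -0.58 ± 0.15 SE, limma adjusted p = 0.0174). It did not pass without WT library 5 (0.0532) or WT library 8 (0.0515), or without both libraries numbered 8 (0.0788). The calcium-independent phospholipase gene Pla2g6 was at 2.79 to 4.26 FPKM in CSF1 and 3.46 to 5.25 FPKM in WT and did not pass (0.515). The other 13 listed phospholipase genes were not tested. The highest of them was Pla2g2d, at 2.66 FPKM in CSF1 library 8, while Pla2g2a, a gene disrupted in C57BL/6 mice, was at 0 in all 6 libraries.

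Of 5 other prostanoid synthase genes, 3 rose, 1 did not pass and 1 was not tested. Ptgis, the prostacyclin synthase gene of vessels and stroma, was at 7.69, 19.2 and 3.63 FPKM in CSF1 libraries 3, 5 and 8 and at 0.0815, 0.149 and 1.10 FPKM in WT (log2 change 2.76 ± 0.50 SE, limma adjusted p = 0.0036). Its CSF1 libraries ranked as Ptgds and the stroma marker sum did. The 6 endothelial markers summed to 11.6 to 14.9 FPKM in CSF1 and 1.08 to 2.52 FPKM in WT, and the 3 that could be tested rose. The part of either cell type was not tested. Hpgds, the other prostaglandin D synthase, of mast cells and macrophages, was at 1.37, 2.58 and 4.85 FPKM in CSF1, against 0.112, 0.0556 and 0.620 FPKM in WT (log2 change 1.57 ± 0.35 SE, limma adjusted p = 0.00947). It did not pass with quantile normalization (0.0900). The mast cell marker Ms4a2 was at 0 FPKM in all 6 libraries, whereas Mcpt4 was at 0.556, 0 and 1.475 FPKM in CSF1 and at 0 in WT. The 6 mast cell markers summed to 0.0161 to 4.94 FPKM in CSF1 and 0 to 0.589 FPKM in WT. The part of mast cell or macrophage RNA in the rise of Hpgds was not tested. Tbxas1, the thromboxane synthase gene of platelets and macrophages, fell under the filter at 0.992, 1.78 and 2.88 FPKM in CSF1 and at 0.0355, 0 and 0.188 FPKM in WT. The 5 platelet markers summed to 10.2, 19.7 and 68.1 FPKM in CSF1, against 1.57, 1.26 and 6.08 FPKM in WT, most of it from Pf4, the 1 that could be tested, which rose (limma adjusted p = 0.0111). Gp1ba was at 0 FPKM in the 3 CSF1 libraries. Tbxas1 ranked over the CSF1 libraries as Pf4 and the macrophage sum did. The platelet markers Ppbp and Itga2b were highest in CSF1 library 5, at 1.18 and 0.650 FPKM. The part of platelet or macrophage RNA was not tested. Of the other prostaglandin E synthase genes, Ptges2 was at 8.80, 10.6 and 14.6 FPKM in CSF1 and 5.21, 5.88 and 8.44 FPKM in WT (log2 change 0.72 ± 0.23 SE, limma adjusted p = 0.0431), a call lost under 11 of 17 alternatives. Ptges3, which also encodes a chaperone partner, was at 65.3 to 96.6 FPKM in CSF1 and 58.9 to 66.8 FPKM in WT (0.334).

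**Figure D4:**
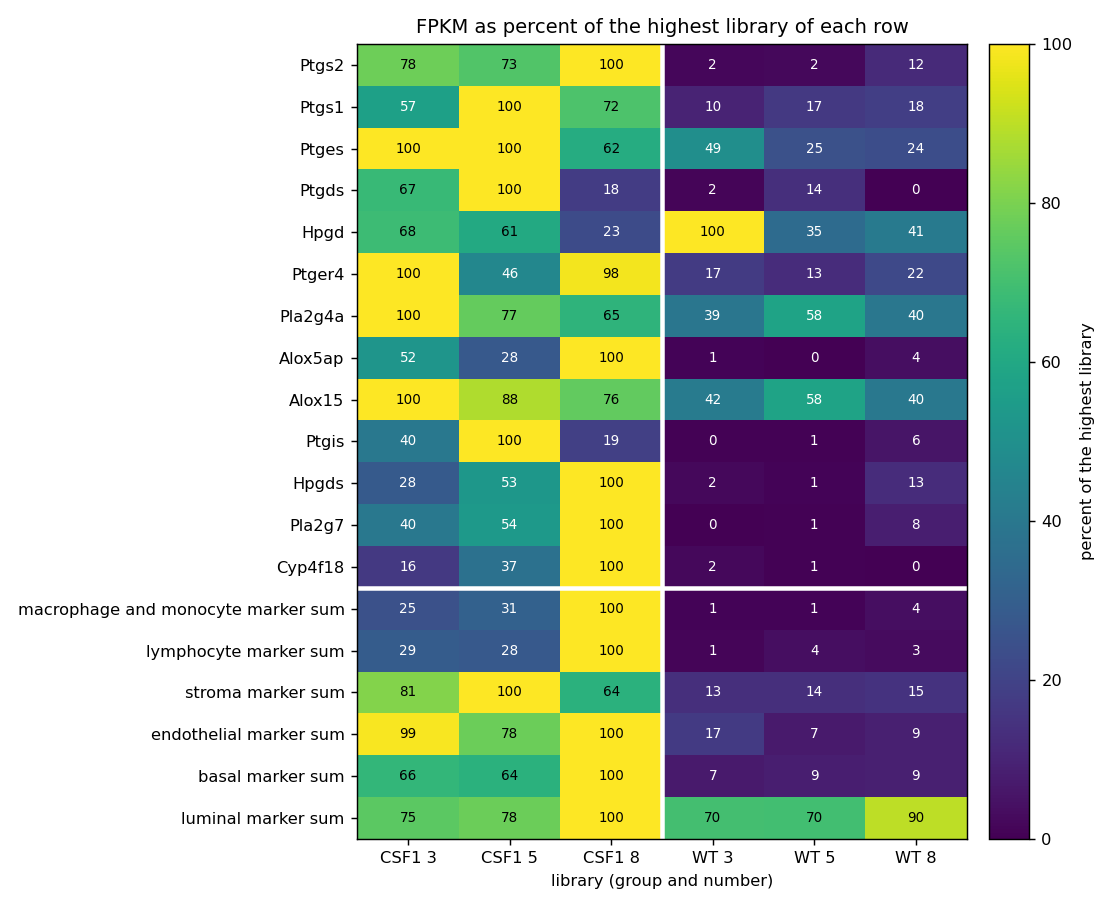
Level in each library as percent of the highest library of its row (colour and printed number), for the 9 genes and 4 other pathway genes above the white line and for summed FPKM of 6 marker lists below it, with CSF1 libraries left of WT libraries. Pla2g7 and Hpgds had their highest value in CSF1 library 8, like the macrophage sum, whereas Ptgds and Ptgis had theirs in CSF1 library 5, like the stroma sum.

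Of 5 breakdown and transport genes, 1 rose, 1 fell and 3 did not pass. Slco2a1, which encodes the prostaglandin uptake carrier, was at 4.16, 2.62 and 5.82 FPKM in CSF1 and at 1.30, 0.411 and 0.443 FPKM in WT, and rose by a log2 change of 1.59 ± 0.30 (SE) and an adjusted p of 0.00432 by limma. The order of Slco2a1 across the 6 libraries was that of the endothelial marker sum, whose part in the rise was not tested. Cbr1, whose carbonyl reductase acts on prostaglandins among other substrates, was at 126, 111 and 95.2 FPKM in CSF1, against 137, 158 and 168 FPKM in WT (log2 change -0.48 ± 0.15 SE, limma adjusted p = 0.0378). Its call was lost under 8 of 17 alternatives, among them the replicate block (0.0542) and fits without CSF1 library 5 (0.0913), CSF1 library 8 (0.0969), WT library 5 (0.124) and WT library 8 (0.105). The reductase genes of the second inactivation step, Ptgr1 (0.469) and Ptgr2 (0.649), and the efflux pump gene Abcc4 (0.338) had limma adjusted p-values over the threshold. Their means were 35.2, 11.7 and 5.43 FPKM in CSF1 and 31.3, 10.5 and 4.51 FPKM in WT, and the sign of their small changes turned with quantile normalization.

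Of the 8 other prostanoid receptor genes, Ptger1 alone passed the filter. It was at 3.09, 2.63 and 0 FPKM in CSF1 libraries 3, 5 and 8 and at 2.15, 1.98 and 0 FPKM in WT, so both libraries numbered 8 were at 0 (limma adjusted p = 0.821). Ptger2, the receptor gene most like Ptger4 in its signalling, stayed at 0.0337 to 0.509 FPKM in CSF1 and at 0 in WT. Ptgdr, a prostaglandin D2 receptor gene, was at 0.671 to 1.59 FPKM in CSF1 and 0.0316 to 0.144 FPKM in WT. The prostacyclin receptor gene Ptgir was at 0.440 to 0.730 FPKM in CSF1 and at 0 in WT. Among these receptors, Ptger4 had the highest level in each CSF1 library.

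On the leukotriene side, changes of the downstream enzyme genes went both ways. Lta4h, which encodes the enzyme that makes leukotriene B4, was at 22.8 to 25.6 FPKM in CSF1 and 18.3 to 28.1 FPKM in WT and did not pass (limma adjusted p = 0.661). Ltc4s, the leukotriene C4 synthase gene, was at 0.769 to 1.12 FPKM in CSF1 and 0.168 to 1.18 FPKM in WT, below the filter. Mgst2, which encodes a membrane glutathione transferase that can also make leukotriene C4, fell to 1.02, 0.746 and 0.733 FPKM in CSF1, against 4.09, 1.75 and 4.41 FPKM in WT (log2 change -1.21 ± 0.28 SE, limma adjusted p = 0.0116), though not without both libraries numbered 8 (0.0711). Mgst3, a related transferase gene, was at 140 to 192 FPKM in CSF1 and 96.2 to 185 FPKM in WT (0.396).

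The genes of cysteinyl leukotriene export and trimming moved in opposite directions. Abcc1, the gene of the leukotriene C4 export pump, was at 3.13, 3.56 and 5.66 FPKM in CSF1, against 0.252, 0.309 and 0.321 FPKM in WT (log2 change 1.95 ± 0.23 SE, limma adjusted p = 0.00045). Ggt1, whose gamma-glutamyl transferase converts leukotriene C4 to D4 and also cleaves glutathione, was at 28.9, 31.5 and 20.1 FPKM in CSF1, against 59.7, 59.6 and 75.7 FPKM in WT (log2 change -1.26 ± 0.19 SE, limma adjusted p = 0.00146). Dpep1, whose dipeptidase converts leukotriene D4 to E4, was at 10.5, 14.4 and 5.38 FPKM in CSF1 and at 0.170, 0.113 and 0.217 FPKM in WT (log2 change 3.16 ± 0.31 SE, limma adjusted p = 0.000161). All 3 calls held under each alternative in which the gene was tested. Abcc1 had the order of the macrophage marker sum across the 6 libraries, and Dpep1 that of the stroma marker sum across the CSF1 libraries. The part of either cell type in these rises was not tested.

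Cyp4f18, whose enzyme inactivates leukotriene B4 in mouse neutrophils, was at 2.53, 5.71 and 15.3 FPKM in CSF1 libraries 3, 5 and 8, against 0.316, 0.0768 and 0 FPKM in WT (log2 change 2.70 ± 0.48 SE, limma adjusted p = 0.00332). Its exons overlap those of the listed gene Zfp961 on the other strand. The neutrophil markers Ngp and Mpo were at 0 FPKM in all 6 libraries, and 8 neutrophil markers summed to 1.97, 2.83 and 33.2 FPKM in CSF1, against 0.133, 0.0930 and 0 FPKM in WT, with S100a8 giving 26.8 FPKM in CSF1 library 8. The order of Cyp4f18 over the CSF1 libraries was that of the neutrophil and macrophage sums, whose part was not tested. Of the other lipoxygenase genes, Alox12 was at 8.54, 6.63 and 11.98 FPKM in CSF1 and at 7.05, 1.88 and 3.56 FPKM in WT, and did not pass (log2 change 1.05 ± 0.36 SE, limma adjusted p = 0.0559) except with the replicate block (0.0270) or without WT library 3 (0.0121). Aloxe3, an epidermal-type lipoxygenase gene, was at 0.897 to 2.06 FPKM in CSF1 and 1.46 to 1.84 FPKM in WT (0.695). The 4 leukotriene receptor genes were below the filter, the highest value being 1.52 FPKM for Cysltr1 in CSF1 library 8.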

How the data were processed

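For each library the authors deposited a Cufflinks isoform table, which gives 34535 RefSeq transcripts in FPKM with confidence bounds in FPKM, per the file headers. The deposited coverage column is a read-depth signal and, in each table, a fixed multiple of FPKM. No fragment totals are given, so there are no counting intervals. Per the submitters' processing notes, bcl2fastq 1.8.3, TopHat and Cufflinks were used with mm10. Per the labels' protocols, SMART-Seq v4 cDNA from random and oligo-dT primers was used, and both kits named for library construction leave strand unmarked.

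FPKM were summed by symbol, and 9 genes with a failed or skipped status in any library, none of them in the lists used, were left out. Genes averaging 1 FPKM or more were compared as log2(FPKM + 1) by limma 3.58.1 (R 4.3.3) with an intensity trend, two-sided, 3 CSF1 against 3 WT libraries, with Benjamini-Hochberg adjustment over all of them. The fit was tested on simulated data. Changes of low genes are understated on this scale. The rule for named genes took the 9 genes, Csf1, all pathway genes over the filter, defining markers and the 2 nearest profiles per gene, of which 1 is not reported here. Pathway genes under the filter were named after their values were seen. The genes and lists were chosen with earlier results of these data known. Deviations of same-numbered libraries from their group means correlated at 0.26, 0.11 and 0.18 for numbers 3, 5 and 8. Libraries with different numbers correlated at -0.227 to -0.0064. Deviations within a group cancel by construction, so these values depend on each other, and they were not tested. This pairing comes from the title numbers and these correlations. File starts count from 0 and were raised by 1.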

Additional observations from a re-analysis of the deposited data

How the results depend on the processing

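Of 148 recomputed changes of the 9 genes, 120 kept direction and call, 25 lost the call, 0 gained one and 3 changed sign. Of 364 for the other pathway genes the numbers were 320, 24, 3 and 17. The causes of the changes below were not tested, except that a stricter filter tests fewer genes and leaving out libraries leaves fewer samples. With no filter 5 of the 9 genes rose, and 2910 of 17920 genes in all. With a mean of at least 5 FPKM only 4 of the 9 genes were tested, and 3 of these rose. At that setting 4 of 13 other pathway genes and 1761 of all 7195 genes tested rose. With quantile normalization 5 of the 9 genes rose, 1694 of all genes rose and 2362 fell (41.8% of called genes were higher, against 77.0% in the fit reported), the median of all genes was -0.16, and the log2 changes of Ptgr1, Ptgr2, Abcc4, Ptger1 and Lta4h were -0.048, -0.17, -0.16, -0.14 and -0.13. With median-ratio scaling 1762 genes fell (53.6% of calls higher), the median was -0.029, and Ptgr1, Ptgr2 and Lta4h were at -0.060, -0.071 and -0.11. Scaled to the summed FPKM of all but the 5 highest genes, 1437 fell (59.6% of calls higher), and these 3 genes were at -0.025, -0.036 and -0.074. Without both libraries numbered 8, an alternative chosen after seeing the data, 485 genes and 1 other pathway gene fell, and Hpgd was at 0.11. The difference in log2 ratio of Ptges over Ptgds was -2.19 with a pseudocount of 0.1 and 0.47 with 5 (exact permutation p = 0.2 and 0.4). With 0.1 and 5 the log2 change was 4.92 and 1.33 for Alox5ap and 3.66 and 0.74 for Ptgds, and both stayed past the threshold.

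Leaving out 1 library at a time, 5 to 8 of the 9 genes rose, 2 to 4 other pathway genes fell (2 without WT library 5 or WT library 8), and 478 (without WT library 5) to 850 of all genes fell. Log2 changes then ran from -0.47 to 0.28 for Hpgd, -0.029 to 0.29 for Ptgr2, -0.32 to 0.87 for Ptger1, -0.32 to 0.024 for Aloxe3 and -0.025 to 0.27 for Lta4h, and the Ptges over Ptgds difference from -0.86 to 0.0065. With the library number as a replicate block, 2883 genes rose and 890 fell, against 2731 and 818 without it, and 8 of the 9 genes rose. Of the genes named with a test, the block changed the calls of Cbr1 and Alox12 and no other. Depth in fragments is unknown, and values near 0 in WT limit the changes of Ptgds and Alox5ap.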
